A study of Mus musculus with 6 samples.

Results

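The bone morphogenetic protein (BMP) signalling and inhibitor of DNA binding (ID) genes described here are 10 of the 14005 genes listed in an RNA-seq table of FLK1+ mesoderm. They were chosen by gene symbol and by role: the ligands Bmp2, Bmp4 and Bmp7, the receptors Bmpr1a and Bmpr2, the signal carrier Smad1, the inhibitor Smad6, and the response genes Id1, Id2 and Id3. The cells came from mouse embryonic stem (ES) cells grown as embryoid bodies (EBs) to day 3.5, and cells with FLK1 (the receptor encoded by Kdr) on their surface were isolated on magnetic columns. There were 3 WT libraries from the J1 ES line and 3 libraries from an Scl-/- ES line, in which both copies of Scl (Tal1), the master regulator of blood specification, are disrupted. The labels give the strain as C57Bl/6 X Sv129 for 3 libraries, and as Sv130, Sv131 and Sv132 in place of Sv129 for Scl-/- replicate 2, WT replicate 3 and Scl-/- replicate 3. These endings run up by 1 in sample order, and whether they stand for different strains or for an error of entry is not known. As each genotype is 1 ES line, the effect of the line and that of the genotype cannot be told apart.

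BMP ligands are secreted proteins that bring type I receptors such as BMPR1A together with type II receptors such as BMPR2. The activated receptors phosphorylate SMAD1, SMAD5 and SMAD9, which join SMAD4 in the nucleus and raise transcription of the ID genes and of Smad6 and Smad7, whose products damp the signal. In the early embryo BMP4 is needed for mesoderm and blood to form, and ID proteins bind the E proteins TCF3, TCF4 and TCF12, the partners with which SCL binds DNA at E-box motifs.

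Levels are in CPM as deposited, each gene's reads scaled to a library size adjusted by the trimmed mean of M-values (TMM) method. Library totals are therefore close but not equal. The libraries held 38623641 to 47621120 reads on the listed genes, so 3 reads corresponded to 0.0615 to 0.0784 CPM. The lowest level of any of the 10 genes was 26.8 CPM, or 1025 reads, and the highest was 354 CPM. Counting error was thus small beside the spread over all 6 libraries. It need not be small beside a narrow spread within a group, such as that of Bmp4 in WT (SD 2.73 CPM). Tal1 was at 182 to 306 CPM in WT libraries and at 5.68 to 9.35 CPM in those labelled Scl-/-. Kdr was high in every library, at 832 to 868 CPM in WT and 724 to 810 CPM in Scl-/- cells. Of 10 endothelial markers, 9 were in the table, and their summed level was 263 to 637 CPM in WT and 52.4 to 150 CPM in Scl-/- cells. For 10 haematopoietic markers, 7 in the table and Tal1 among them, the sum was 280 to 458 CPM in WT and 20.4 to 38.8 CPM in Scl-/- cells, where Hbb-bh1 was at 0 in all 3 libraries. Tal1, the disrupted gene itself, made up most of the WT sum, with 303.3, 182.3 and 305.6 of 455.2, 280.3 and 458.1 CPM. Each of the other haematopoietic markers in the table was also lower in every Scl-/- library than in any WT library. Of the 6 FLK1+ mesoderm markers, Kdr among them, the sum was 1483 to 1876 CPM in WT and 1825 to 2646 CPM in Scl-/- cells. The 6 pluripotency markers summed to 92.4 to 159.6 CPM in WT and 95.2 to 236 CPM in Scl-/- cells, and 4 of 6 paraxial markers to 10.8 to 23.2 and 14.5 to 37.15 CPM. The sums were 708 to 793 and 803 to 856 CPM for 5 of 6 cardiac markers, and 75.0 to 98.9 and 118 to 129 CPM for 3 of 4 neural markers. Single genes of these lists went against their sums. Hand1 had means of 419 CPM in WT and 318 CPM in Scl-/- cells, while Gata4 had 212 and 306 CPM. Nes had 63.9 and 107 CPM, while Tubb3 had 7.36 and 3.63 CPM. Esrrb and Zfp42 of the pluripotency list, Nkx2-5 of the cardiac list and Tcf15 of the paraxial list also had lower means in Scl-/- cells. Kdr too had a lower mean there, 770 CPM against 856 CPM in WT, while the sum of its list ran higher. Of 5 endoderm markers only Sox17, which is also on the endothelial list, was in the table, at 6.53 to 22.1 and 0.967 to 5.56 CPM. The part of these shifts in marker levels in the values given here was not tested, and in bulk RNA fewer cells of a type cannot be told apart from less RNA per cell.

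Promoters were matched by symbol in RefSeq (GRCm38.p6) for 7 of the 10 genes, and not for Bmp2, Bmp7 and Id1. The 4 shown run from 250 bases before to 50 bases after the start of transcription, counted as +1. Smad6 and Smad1 are shown because they carried the genotype differences described next, and Id3 and Id2 because they are the ID genes matched, and their levels followed different libraries. Capitals mark E-boxes (CANNTG, the same on both strands), GATA on either strand (read as GATA or TATC, the motif of the GATA factors that bind beside SCL) and the SMAD motif GGCGCC. Smad6 lies on the minus strand at chr9:64022010-64022309, Smad1 on the minus strand at chr8:79399379-79399678, Id3 on the plus strand at chr4:136143572-136143871 and Id2 on the minus strand at chr12:25096043-25096342, and each is printed 5′ to 3′ in the gene's own direction.
Smad6: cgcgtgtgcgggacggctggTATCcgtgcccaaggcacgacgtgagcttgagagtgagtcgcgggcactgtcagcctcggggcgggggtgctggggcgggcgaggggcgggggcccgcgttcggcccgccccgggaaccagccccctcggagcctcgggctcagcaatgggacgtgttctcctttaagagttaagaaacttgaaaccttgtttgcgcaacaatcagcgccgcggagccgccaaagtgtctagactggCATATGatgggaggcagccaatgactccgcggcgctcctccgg
Smad1: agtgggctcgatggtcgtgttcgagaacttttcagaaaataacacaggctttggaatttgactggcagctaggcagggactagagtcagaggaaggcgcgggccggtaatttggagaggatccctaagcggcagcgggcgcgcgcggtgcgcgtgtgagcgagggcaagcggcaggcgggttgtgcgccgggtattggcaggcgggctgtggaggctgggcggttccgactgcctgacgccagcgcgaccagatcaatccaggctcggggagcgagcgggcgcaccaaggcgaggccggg
Id3: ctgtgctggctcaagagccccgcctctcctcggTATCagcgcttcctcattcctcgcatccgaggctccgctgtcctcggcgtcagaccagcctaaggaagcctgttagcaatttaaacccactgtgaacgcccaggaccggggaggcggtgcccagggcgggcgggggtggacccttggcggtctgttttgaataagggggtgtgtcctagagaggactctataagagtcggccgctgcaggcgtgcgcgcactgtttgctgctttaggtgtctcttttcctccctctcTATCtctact
Id2: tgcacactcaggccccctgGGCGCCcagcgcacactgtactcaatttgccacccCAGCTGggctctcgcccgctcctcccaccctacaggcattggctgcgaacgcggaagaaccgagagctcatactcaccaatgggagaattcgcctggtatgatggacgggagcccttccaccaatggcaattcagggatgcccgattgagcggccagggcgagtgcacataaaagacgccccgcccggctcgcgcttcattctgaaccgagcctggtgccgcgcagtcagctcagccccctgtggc
The Smad6 window held 1 E-box, CATATG at +8, and 1 GATA at -230. The Smad1 window held none of the 3 motifs. In Id3 there were 2 GATA motifs, at -217 and +41, and no E-box. The Id2 window held 1 E-box, CAGCTG at -196, and 1 GGCGCC at -231. No marked motif overlapped another in these windows. Of all 32851 promoters of the same length, 72.3% held CANNTG, 57.9% held GATA and 11.9% held GGCGCC, so the presence of the first or the second is the common case.

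Between Scl-/- and WT cells the median change of the BMP and ID genes was close in size to that of all tested genes. Smad1, Bmp2 and Id2 were higher and Smad6 lower in Scl-/- cells in all 3 same-numbered pairs of libraries. The Scl-/- means of Bmpr1a, Id1 and Id3 were 0.986, 0.968 and 0.953 of the WT means. Each gene was compared with limma on log2(CPM + 0.5) over all 13991 tested genes, and a gene was called at a Benjamini-Hochberg adjusted p under 0.05. With genotype as the only term, none of the 10 genes was called (0 of 10, and 0 of 10 at an unadjusted p under 0.05), against 333 genes or 2.38% of all tested and 2474 at an unadjusted p under 0.05. Same-numbered libraries deviated from their groups in the same way, and with the number as a block in the limma model 2 of the 10 genes were called, Smad1 higher and Smad6 lower, against 24.2% of all tested genes (12.0% higher and 12.2% lower). A count of 2 in 10 is thus no more than the share of all genes called, and the result concerns the single genes rather than the group. The WT and Scl-/- ranges overlapped for all 10 genes, whereas they did not overlap for 21.6% of all tested genes. The direction was the same in the 3 pairs for 4 of the 10 genes, against 56.2% of all tested genes. The median log2 fold change was -0.03 for the 10 genes and 0.01 for all tested genes, and the median size of the change without its sign was 0.18 and 0.16.

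**Figure D1:**
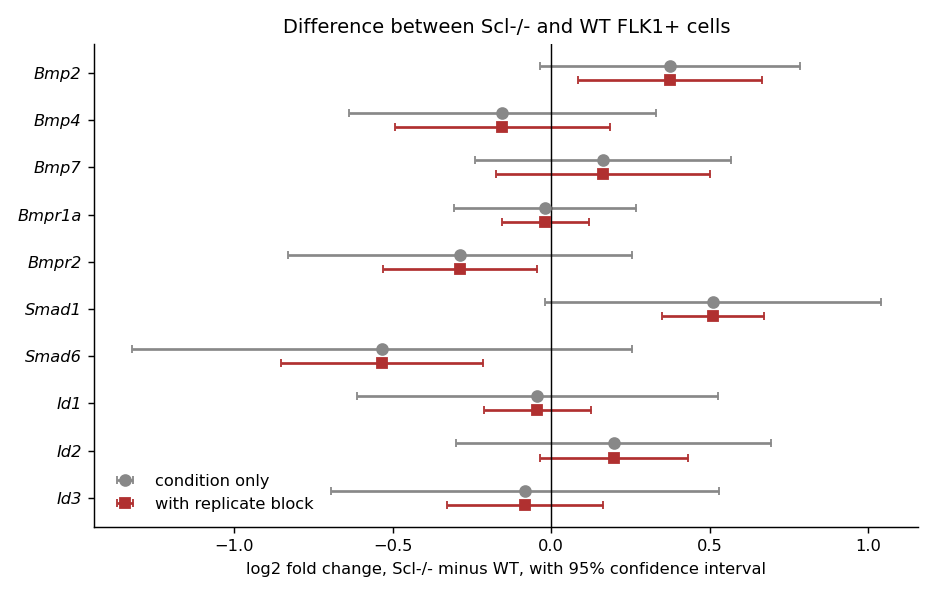
Log2 fold change of each gene, Scl-/- minus WT, with its 95% confidence interval from limma with genotype only (grey circles) and with the replicate block (red squares). Only the blocked intervals of Bmp2, Bmpr2, Smad1 and Smad6 leave out 0, and of these only Smad1 and Smad6 passed the adjusted threshold.

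**Figure D2:**
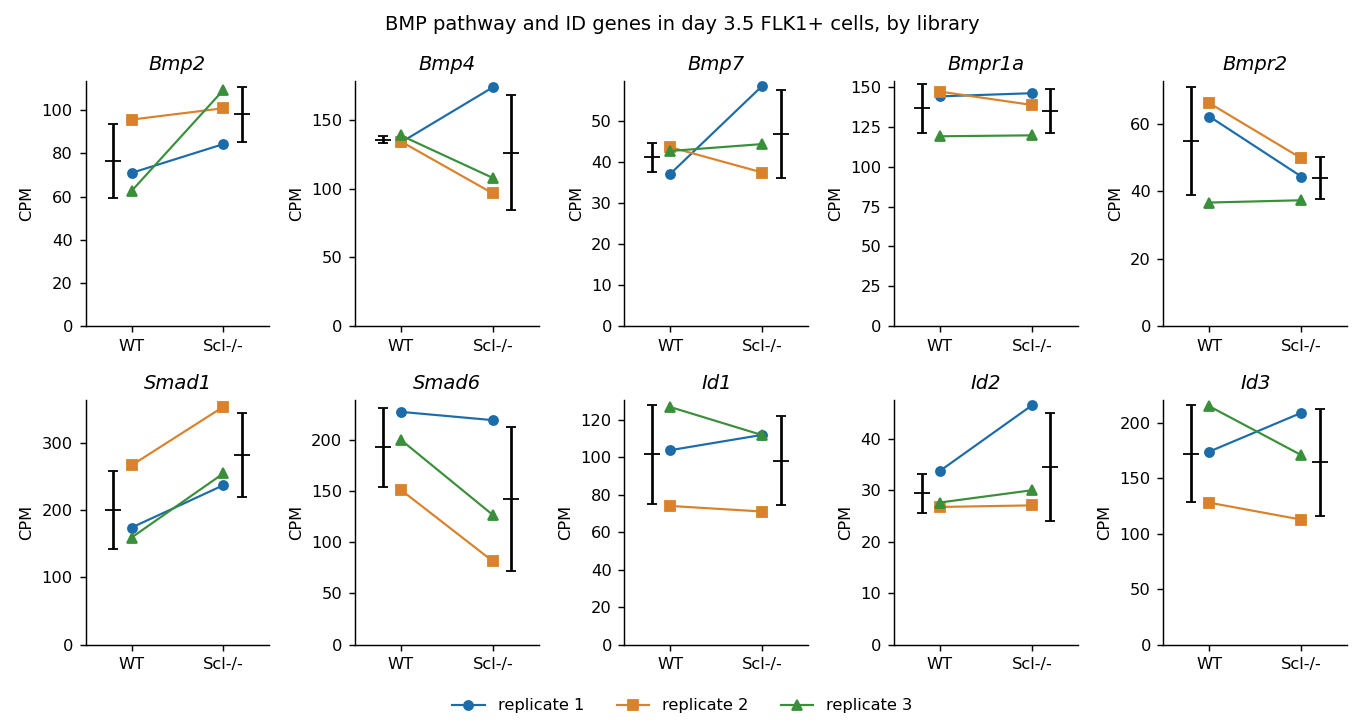
CPM of each gene in each library on linear axes that start at 0, with lines joining WT and Scl-/- libraries of the same replicate number and bars giving the group mean ± SD of 3 libraries. The 3 lines rise for Bmp2, Smad1 and Id2 and fall for Smad6, while those of Bmp4, Id1 and Id3 run in different directions.

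Among the ligands, Bmp2 had a higher mean in Scl-/- cells that did not pass the test, and Bmp4 and Bmp7 went different ways in different pairs. Bmp2, a ligand with roles in heart formation (ENSMUSG00000027358, mm9 chromosome 2 from 133377895 to 133388621), stood at 70.9, 95.6 and 62.5 CPM in WT (replicates in numerical order, as for every gene that follows) and at 84.3, 101 and 109 CPM in Scl-/- cells. Each Scl-/- library was above its same-numbered WT library, but WT replicate 2 was above Scl-/- replicate 1. The means were 76.4 ± 17.2 CPM in WT and 98.2 ± 12.7 CPM in Scl-/- cells (SD, n = 3), a log2 fold change of 0.38 with a standard error (SE) of 0.18 and a limma adjusted p of 0.328. The blocked interval ran from 0.085 to 0.67, and with the block the limma adjusted p was 0.0651.

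Bmp4, the ligand needed for mesoderm in the embryo (ENSMUSG00000021835, mm9 chromosome 14 from 47003195 to 47010344), had 133.9, 134.5 and 138.9 CPM in the WT libraries and 174, 96.6 and 108 CPM in the Scl-/- libraries. The WT libraries lay close together and the Scl-/- libraries fell on both sides of them, the first above and the other two below. The SD of 41.9 CPM in Scl-/- cells stood against 2.73 CPM in WT (n = 3 each), around means of 126 and 136 CPM. The log2 fold change was -0.15 (SE 0.21, limma adjusted p = 0.809). Without the first pair it was -0.42, with a limma adjusted p of 0.00194 in the blocked fit. That result depended on the pair left out. In the blocked fit it was 0.0069 without pair 2 and -0.049 without pair 3 (limma adjusted p = 0.985 and 0.892). Gm15217 and Gm15222 are annotated on the opposite strand of Bmp4, and whether reads were counted by strand is not given in the sources used here, so reads of these genes and of Bmp4 cannot be told apart.

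Bmp7, a ligand best known from kidney and eye development (ENSMUSG00000008999, mm9 chromosome 2 from 172693513 to 172765822), was the lowest ligand, with 37.1, 43.5 and 42.6 CPM in WT and 58.5, 37.35 and 44.3 CPM in Scl-/- cells. Only Scl-/- replicate 1 stood outside the range of the others, above them. The log2 fold change of 0.16 (SE 0.17, limma adjusted p = 0.731) had a 95% interval from -0.24 to 0.57.

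Neither receptor gene was called. Bmpr1a, the main type I receptor for BMP2 and BMP4 (ENSMUSG00000021796, mm9 chromosome 14 from 35223920 to 35316527), had 144, 147 and 119 CPM in WT and 146, 139 and 119.9 CPM in Scl-/- cells. Replicate 3 was the lowest library of both genotypes, by almost the same amount. The means of 137 ± 15.4 and 135 ± 13.7 CPM (SD, n = 3) gave a log2 fold change of -0.02 with a blocked 95% interval from -0.16 to 0.12, the narrowest of the 10 genes (limma adjusted p = 0.974 without the block). Gm17110 is annotated on the strand opposite to Bmpr1a, with the same limit as for Bmp4.

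Bmpr2, the type II receptor (ENSMUSG00000067336, mm9 chromosome 1 from 59821481 to 59927703), had 62.2, 66.2 and 36.7 CPM in WT and 44.4, 49.8 and 37.35 CPM in Scl-/- cells. It was lower in Scl-/- cells in pairs 1 and 2 and level in pair 3, where both libraries were low. The log2 fold change was -0.29 (SE 0.23, limma adjusted p = 0.618, and 0.0844 with the block). Without pair 3 it was -0.44, with a limma adjusted p of 0.0238 in the blocked fit. In the same fit it was -0.19 without pair 1 and -0.23 without pair 2, not called (limma adjusted p = 0.240 and 0.380). Chromosome 1, with 789 tested genes, was shifted as a whole, its median change being -0.29, and after this median was taken out that of Bmpr2 was -0.0022 (limma adjusted p = 0.999), so Bmpr2 stood where its chromosome stood.

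The SMAD genes showed the largest differences, in opposite directions. Smad1, which carries the BMP signal to the nucleus (ENSMUSG00000031681, mm9 chromosome 8 from 81862294 to 81923417), had 174, 267 and 159 CPM in WT and 237, 354 and 255 CPM in Scl-/- cells. Every Scl-/- library was above its same-numbered WT library, by 0.45, 0.41 and 0.68 on the log2 scale, but WT replicate 2 was above Scl-/- replicates 1 and 3. Means of 200.1 ± 58.3 and 282 ± 63.0 CPM (SD, n = 3) gave a log2 fold change of 0.51, or 1.42-fold, with an SE of 0.23 and a limma adjusted p of 0.302. With the block the SE was 0.070 and Smad1 rose with a limma adjusted p of 0.00205. In the blocked fit Smad1 stayed called without each pair in turn, with a log2 fold change of 0.43 to 0.56.

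Smad6, an inhibitory SMAD that is itself a target of BMP signalling and is abundant in endothelium (ENSMUSG00000036867, mm9 chromosome 9 from 63800953 to 63869866), had 227, 151 and 199.6 CPM in WT and 219, 81.15 and 126 CPM in Scl-/- cells. Each Scl-/- library was below its same-numbered WT library, yet pair 1 differed by -0.05 on the log2 scale against -0.89 and -0.66 in pairs 2 and 3. Scl-/- replicate 1 was above 2 of the WT libraries. Means of 193 ± 38.6 and 142 ± 70.2 CPM (SD, n = 3) gave a log2 fold change of -0.53 with an SE of 0.34 and a limma adjusted p of 0.494. With the block the SE was 0.14 and Smad6 fell with a limma adjusted p of 0.0266. The call rested on pairs 2 and 3. In the blocked fit the log2 fold change was -0.77 without pair 1 (limma adjusted p = 4.9e-05), -0.36 without pair 2 (0.179, no longer called) and -0.47 without pair 3 (0.148, no longer called). Removing the median of its own chromosome left the log2 fold change at -0.54 for Smad6 and at 0.52 for Smad1, and both stayed called with the block. Beside the lower Smad6 the 9 endothelial markers measured were all lower with the block, and their part in this difference was not tested.

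The 3 ID genes, whose proteins hold E proteins away from DNA, did not differ between genotypes by more than the libraries differed among themselves. Id1 (ENSMUSG00000042745, mm9 chromosome 2 from 152561987 to 152563146) had 104, 74.0 and 127 CPM in WT and 112, 71.0 and 112 CPM in Scl-/- cells. Replicate 2 was the lowest library of both genotypes. The log2 fold change was -0.04 with an SE of 0.24 (limma adjusted p = 0.969), and its blocked interval ran from -0.21 to 0.12.

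Id3 (ENSMUSG00000007872, mm9 chromosome 4 from 135699412 to 135701670) followed the same order, with 174, 128 and 215 CPM in WT and 209, 113 and 171 CPM in Scl-/- cells. Replicate 2 was again lowest, and Scl-/- cells were higher than WT in pair 1 and lower in pairs 2 and 3. The log2 fold change was -0.08 with an SE of 0.26 (limma adjusted p = 0.941). Without pair 1 it was -0.26, with a limma adjusted p of 0.0275 in the blocked fit. That result depended on the pair left out. In the blocked fit it was -0.034 without pair 2 and 0.040 without pair 3 (limma adjusted p = 0.918 and 0.8525).

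Id2 (ENSMUSG00000020644, mm9 chromosome 12 from 25778666 to 25780957) was the lowest of the 10 genes in CPM, with 33.8, 26.8 and 27.7 CPM in WT and 46.6, 27.1 and 30.05 CPM in Scl-/- cells. Unlike Id1 and Id3, it was highest in replicate 1 of both genotypes, and each Scl-/- library was above its same-numbered WT library, by 0.46, 0.016 and 0.12 on the log2 scale. The log2 fold change was 0.20 with an SE of 0.21 (limma adjusted p = 0.739, and 0.203 with the block).

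Levels of different genes were compared per kilobase (kb) of annotated exon. In WT cells the order by mean level was Id3 at 96.3 CPM per kb, Id1 at 87.5, Smad6 at 61.4, Bmp4 at 61.1, Smad1 at 34.4, Id2 at 23.2, Bmpr1a at 21.6, Bmp2 at 21.5, Bmpr2 at 15.7 and Bmp7 at 10.2 CPM per kb. Neighbours in this order had overlapping WT ranges except Bmp4 and Smad1, and Smad1 and Id2. In Scl-/- cells the mean of Smad1 was 48.5 CPM per kb and that of Smad6 45.3 CPM per kb, so the mean of Smad1 stood above that of Smad6, with overlapping ranges. Bmp4 was thus the highest of the 3 ligands and Id3 and Id1 the highest of the ID genes in both genotypes.

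**Figure D3:**
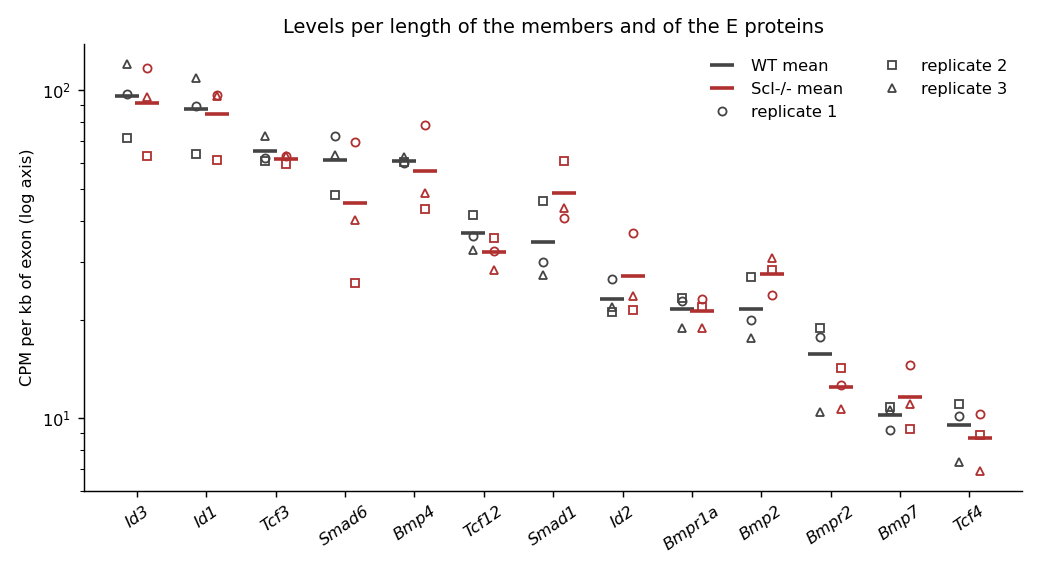
CPM per kb of exon, on a log axis, of the 10 genes and the 3 E protein genes in order of the WT mean, with WT in grey and Scl-/- in red, marker shapes for the replicate number and dashes for the group means. Id3 and Id1 stand highest, Tcf3 is next, and Bmp7 and Tcf4 stand at the low end.

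The E proteins that the ID proteins bind were expressed alongside them. Tcf3, the gene of E2A, had a mean of 65.3 CPM per kb in WT and 61.9 CPM per kb in Scl-/- cells, Tcf12 had 36.7 and 32.1 CPM per kb, and Tcf4 had 9.54 and 8.70 CPM per kb. Tcf12 had a log2 fold change of -0.19 (limma adjusted p = 0.516) and fell with the block (limma adjusted p = 0.0438), and Tcf3 (-0.07) and Tcf4 (-0.13) were not called in either fit. The summed level of Id1, Id2 and Id3 per kb over that of the 3 E proteins was 1.97, 1.37 and 2.23 in WT replicates 1 to 3 and 2.36, 1.40 and 2.19 in Scl-/- replicates 1 to 3. This ratio of RNA levels followed the replicate number, with replicate 2 lowest in both genotypes, and the genotypes overlapped.

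For most of these genes much of the variation lay between replicate numbers. Of the variance over the 6 libraries, the replicate number held 96.3% for Bmpr1a, 95.9% for Id1, 84.9% for Id3, 75.7% for Id2, 68.75% for Bmpr2 and 62.3% for Smad6. For Smad1 it held 54.0%. The replicate number has more levels than genotype, so it tends to hold a larger share even where neither has an effect. The shares are not adjusted for this, and for Smad1 they do not rank the terms. Genotype held its largest shares in Bmp2 with 44.0%, Smad1 with 43.6% and Smad6 with 26.2%, and its smallest in Bmpr1a with 0.539% and Id1 with 0.48%. For Bmp4 and Bmp7 neither term held the larger part, and 48.6% and 70.6% was left as remainder.

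The 3 pairs did not show the same picture. In pair 1 the Scl-/- library had more Bmp4, Bmp7, Id1, Id2 and Id3 than its WT partner, by 0.38, 0.65, 0.11, 0.46 and 0.26 on the log2 scale. In pairs 2 and 3 Bmp4 was lower instead, by -0.48 and -0.36, and Id3 by -0.18 and -0.33. When pair 1 was left out of the blocked fit, 5 of the 10 genes were called rather than 2, Bmp2 and Smad1 as higher and Bmp4, Smad6 and Id3 as lower in Scl-/- cells. That fit called 3654 of the 13991 tested genes, and it rests on 2 pairs.

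**Figure D4:**
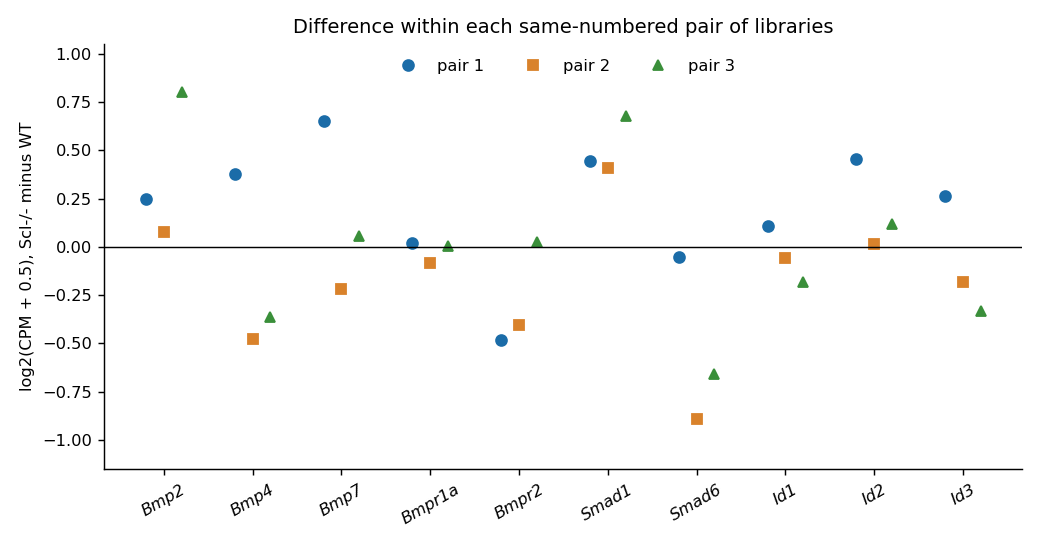
Difference in log2(CPM + 0.5) between the Scl-/- and the WT library of each same-numbered pair, for each gene, with 1 marker for each pair and a line at 0. Bmp2, Smad1 and Id2 lie above 0 in all 3 pairs and Smad6 below, while Bmp4, Id1 and Id3 lie above 0 in pair 1 and below it in pairs 2 and 3.

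Over the 6 libraries, which are only 6 points that share their genotype and pair structure, the genes fell into a few likenesses that are given as a description. Pearson's r of log2(CPM + 0.5) was 0.96 between Id1 and Id3, 0.88 between Bmp2 and Smad1, 0.87 between Bmp4 and Smad6, 0.83 between Bmpr1a and Bmpr2 and 0.80 between Smad6 and Id3. Smad1 ran opposite to Smad6 (r = -0.85) and to Id3 (r = -0.79). Id2 was less like Id1 (r = 0.43) than Id3 was, and was nearest to Bmp7 (r = 0.73).

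Among 11715 tested genes averaging 5 CPM or more, the patterns most like each gene's were found by the same r over 6 libraries. The closest were Cdh2 to Smad1 (r = 0.999), 1500011K16Rik to Smad6 (r = 0.9995), Zfp64 to Id3 (r = 0.998), Ccdc130 to Id1 (r = 0.995), Bora to Id2 (r = 0.992), Zfp1 to Bmpr1a (r = 0.997), Dennd4c to Bmpr2 (r = 0.993), Slfn5 to Bmp2 (r = 0.993), Rap2a to Bmp4 (r = 0.991) and Mfsd12 to Bmp7 (r = 0.977). Cdh2 encodes N-cadherin. The next genes were Syce1l and Etaa1 for Smad1, Gdf11 and Osbpl11 for Smad6, Cpne2 and E4f1 for Id3, Sirt3 and Fam73b for Id1, and Itpripl1 and Hinfp for Id2. For the receptors and ligands they were Ptar1 and Strn3 for Bmpr1a, Phip and Ptpn4 for Bmpr2, Ltbp1 and Arhgap22 for Bmp2, Fgfr3 and Rarg for Bmp4, and Plk2 and Zfp189 for Bmp7. An r of at least 0.95 was reached by 375 genes with Bmpr1a, 181 with Smad1, 120 with Id1, 109 with Bmpr2, 89 with Id3, 88 with Smad6, 35 each with Bmp2 and Id2, 25 with Bmp4 and 7 with Bmp7, which is 0.0598% to 3.2% of the genes compared.

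Of 49 other BMP pathway genes listed by role, 36 were tested. With genotype as the only term, limma called 2, Smurf2 as higher and Bmp6 as lower, against 333 or 2.38% of all tested genes. With the block 14 of the 36 were called, 4 higher and 10 lower, and 22 were not. Of all 13991 tested genes 3385 or 24.2% were called, 12.0% higher and 12.2% lower. The share called was thus larger among the 36, through genes called lower. This difference was not tested, and the lists were chosen with earlier results of these data known. The counts by role that follow are to be read beside the same shares. Leaving out a pair moved the blocked count from 14 to 18 without pair 1, 5 without pair 2 and 7 without pair 3. The blocked count over all tested genes moved the same way, from 3385 to 3654, 1259 and 1641. The unblocked count was 0 without WT replicate 1, and 1 without WT replicate 3, Scl-/- replicate 2 or Scl-/- replicate 3. Over all tested genes it fell from 333 to 44, 128, 129 and 162 in the same order. The median change of the 36 genes on the log2 scale was -0.0064.

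Of the 5 other ligands tested, 2 were called with the block, both lower. Bmp6 had 24.8, 15.1 and 23.6 CPM in WT and 9.61, 7.35 and 7.28 CPM in Scl-/- cells, without overlap. Its log2 fold change was -1.31 (limma adjusted p = 0.0289, and 0.000575 with the block), and it was the ligand that changed most. Bmp8a was lower by -0.77 (limma adjusted p = 0.0231 with the block), and Bmp8b, the highest of the list by log2 fold change, was at 0.02 and not called.

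Of the 7 other receptor and co-receptor genes, Acvr2a rose and Acvrl1 fell with the block. Acvr2a, a type II receptor shared with activins, had 37.0, 51.2 and 29.3 CPM in WT and 50.5, 69.2 and 47.5 CPM in Scl-/- cells, a log2 fold change of 0.52 (limma adjusted p = 0.292, and 0.00351 with the block). Acvrl1, the type I receptor ALK1 of endothelium, had 19.4, 11.4 and 22.1 CPM in WT and 16.0, 5.83 and 11.5 CPM in Scl-/- cells, or -0.70 on the log2 scale (limma adjusted p = 0.417, and 0.0114 with the block). For both genes the groups overlapped. The other 5 receptor genes were not called.

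Of the other SMADs, Smad7, the second inhibitory SMAD, had 202, 181 and 136 CPM in WT and 177, 108 and 89.2 CPM in Scl-/- cells. It was lower in all 3 pairs, with a log2 fold change of -0.51 (limma adjusted p = 0.370, and 0.00924 with the block), close to that of Smad6. The signal carriers Smad5 (0.09) and Smad9 (-0.00037) and the shared partner Smad4 (-0.09) were not called in either fit. With the block, then, the inhibitory Smad6 and Smad7 fell and Smad1 rose.

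Smurf2, a ubiquitin ligase that marks SMADs and BMP receptors for breakdown, had 54.2, 57.7 and 45.0 CPM in WT and 108, 139.8 and 126 CPM in Scl-/- cells. Its groups lay apart, with a log2 fold change of 1.24 (limma adjusted p = 0.00819, and 0.000146 with the block). Chromosome 11, where Smurf2 lies, was also shifted as a whole, by a median of 0.31, and with this removed Smurf2 was at 0.94 (limma adjusted p = 0.0154). Bambi, a decoy receptor induced by BMP, and Ski, a SMAD co-repressor, had log2 fold changes of -0.33 and -0.25 and fell with the block (limma adjusted p = 0.0364 and 0.0199). Smurf1 and Tob1 were not called in either fit.

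Secreted antagonists went both ways. Sost, better known as a WNT antagonist of bone, was lower with the block (-1.11, limma adjusted p = 0.0134), at 0.266 to 2.87 CPM. Fst, which encodes follistatin, had 21.7, 69.6 and 20.5 CPM in WT and 46.1, 118 and 67.2 CPM in Scl-/- cells, higher in every pair, with a log2 fold change of 1.17 (limma adjusted p = 0.294, and 0.00168 with the block). Bmper, a modulator made by endothelial precursors among others, rose with the block too (0.53, limma adjusted p = 0.00222). The other 7 antagonist genes tested were not called.

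Of the 5 other response genes, Id4, Msx1 and Tlx2 fell with the block and none rose. Id4, the fourth ID gene, had 7.10, 7.63 and 6.92 CPM in WT and 5.47, 4.42 and 4.51 CPM in Scl-/- cells. Its groups did not overlap, unlike those of Id1, Id2 and Id3. Nor did those of 21.6% of all tested genes, among them Msx1 and Tlx2, lower in Scl-/- cells, and Atoh8, higher. The log2 fold change of Id4 was -0.55 (limma adjusted p = 0.129, and 0.0208 with the block). Per length Id4 stood at 4.35 CPM per kb in WT, below the other ID genes. Msx1 had a log2 fold change of -0.29 (limma adjusted p = 0.0423 with the block) and Tlx2 of -0.86 (limma adjusted p = 0.0348 with the block). Msx2 was at 0.02, and Atoh8 was the highest of the list at 0.58 (limma adjusted p = 0.0572 with the block), both not called. The part of the endothelial and haematopoietic marker levels given above in the differences of these pathway genes was not tested.

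**Figure D5:**
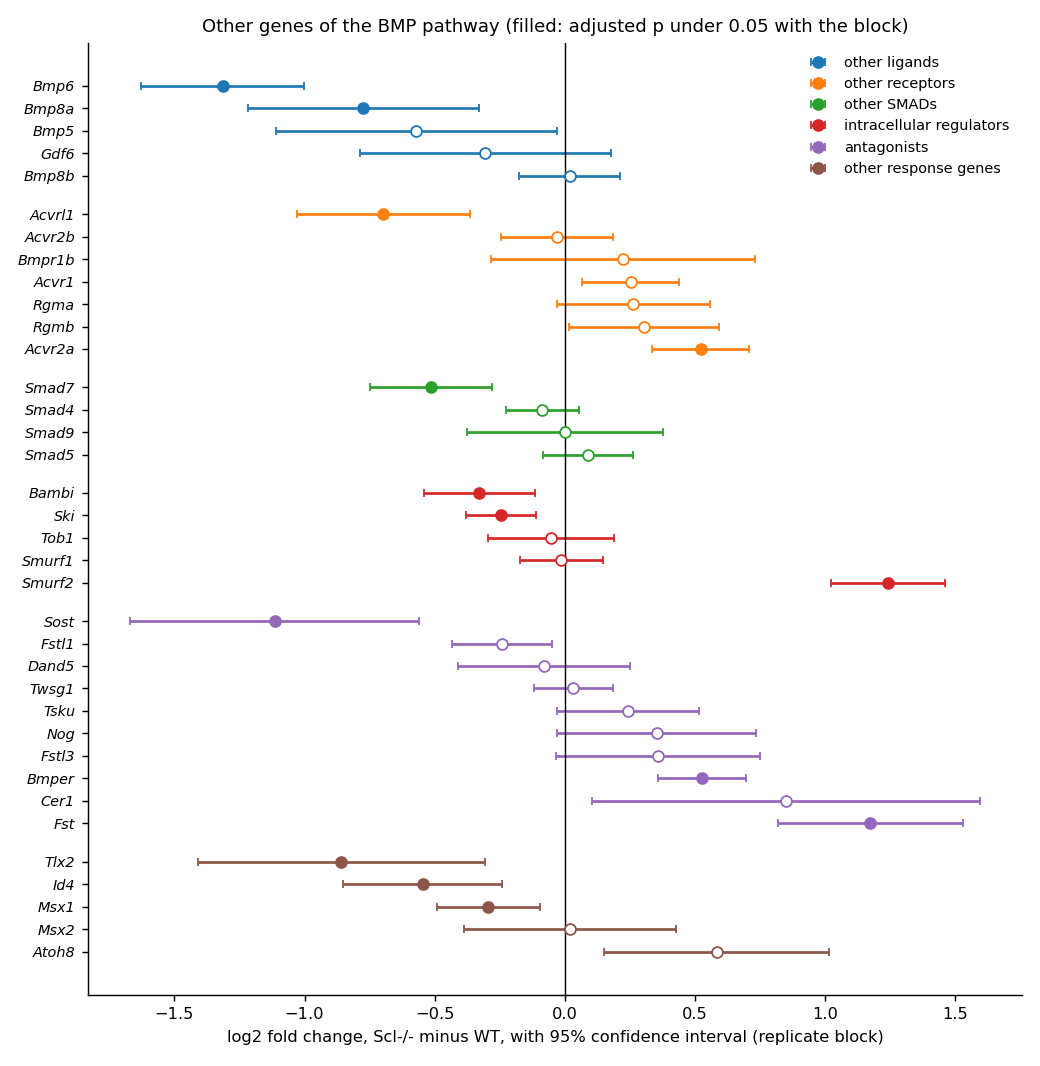
Log2 fold change, Scl-/- minus WT, of the 36 other ligand, receptor, SMAD, regulator, antagonist and response genes tested and drawn by role, with 95% confidence intervals from limma with the replicate block. Filled circles mark the 14 called genes, of which 10 lie below 0 and 4 above.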

How the data were processed

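RNA-seq libraries of FLK1+ cells from day 3.5 EBs (3 WT and 3 Scl-/-) were grouped by genotype and replicate number from the sample labels. The authors aligned reads to mm9 (TopHat2 2.0.8b and SAMtools 0.1.19 in the submitters' processing notes), removed duplicates, normalized with edgeR's TMM method, and deposited CPM values for 14005 genes. The counting tool and its annotation are not given in the sources used here. Removing duplicates can lower the values of short, highly expressed genes such as Id1 and Id3. The gene description and accession columns of the table were not used.

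A gene was kept where 3 or more libraries reached 0.5 CPM (13991, 14 removed). Groups were compared on log2(CPM + 0.5), which understates changes of low genes, with limma 3.58.1 in R 4.3.3 (intensity trend), genotype as the only term, and Benjamini-Hochberg adjustment over the tested genes. The test was tried on simulated data first. Replicate numbers come from the labels, and the study describes independent differentiations. The deviations of same-numbered libraries from their group means correlated at 0.59, 0.76 and 0.75 across genes, against -0.62 to -0.10 for other numbers. Deviations cancel out within a group, so the low values for other numbers follow in part from the high ones for the same number. The numbers were taken to pair the libraries, and the replicate number was also fitted as a block. Fold changes are the same in both fits, and standard errors differ.

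Gene positions and exon lengths come from the GENCODE annotation of mm9, and promoters with their own coordinates from RefSeq on GRCm38.p6. Levels per length depend on the annotated exons. Other steps used Python 3.11.15, NumPy 2.4.6, pandas 2.3.3 and Matplotlib 3.10.9. The members and all gene lists were chosen with earlier results of these data known. Genes named are the 10 members, Tal1 and Kdr, the E proteins, the called genes and the extremes of each other list, and the 3 genes most like each member. Marker lists are given as sums with a few single genes. Other genes of those lists were named after their values were seen, as were which promoters are printed. Among them are Bmp8b, Smad4, Smad5, Smurf1, Tob1, Msx2, Hbb-bh1, Hand1, Gata4, Nes, Tubb3, Esrrb and Tcf15. A further BMP pathway gene was left out of the lists and is not reported here. Alternatives were other pseudocounts, filters and scalings, no trend, a fold threshold of 0.48, removal of each chromosome's median, the block, and leaving out each library or pair.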

Additional observations from a re-analysis of the deposited data

How the results depend on the processing

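Each fit without a replicate block left all 10 BMP and ID genes uncalled, under pseudocounts of 0.1 and 1, no filter on low values, a mean of at least 2 CPM, median-ratio rescaling, no intensity trend, removal of chromosome medians, a fold threshold of 0.48, and without each library. All tested genes called ran from 267 to 338 in the settings that keep every library, against 333. The replicate block moved the counts to 3385 of all tested genes, 2 of the 10 and 14 of the other pathway genes, and made Smad1 (0.51, limma adjusted p = 0.00205) and Smad6 (-0.53, 0.0266) calls. The block with chromosome medians removed gave 2637, 2 and 14, with Smad1 at 0.52 and Smad6 at -0.54. The block changed no other call among the 10 genes.

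Without 1 library and without the block, all tested genes called ranged from 44 (without WT replicate 1) to 384, the 10 genes called stayed at 0 and the other pathway genes called, 2 with every library, ranged from 0 to 3. Log2 fold changes then ranged from 0.24 to 0.55 for Bmp2, -0.41 to 0.013 for Bmp4, -0.010 to 0.31 for Bmp7, -0.12 to 0.064 for Bmpr1a, -0.55 to -0.13 for Bmpr2, 0.34 to 0.74 for Smad1, -0.90 to -0.19 for Smad6, -0.25 to 0.17 for Id1, -0.036 to 0.35 for Id2 and -0.28 to 0.16 for Id3.

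With the block and without pair 1, 3654 of all tested genes, 5 of the 10 and 18 other pathway genes were called, with Bmp2 at 0.44, Bmp4 at -0.42, Smad1 at 0.54, Smad6 at -0.77 and Id3 at -0.26, and Bmp7 turned to -0.081. Without pair 2 the counts were 1259, 1 and 5, with Smad1 called at 0.56, and Bmp4 turned to 0.0069 and Bmpr1a to 0.014. Without pair 3 they were 1641, 2 and 7, with Smad1 (0.43) and Bmpr2 (-0.44) called, and Id1 turned to 0.026 and Id3 to 0.040. Bmp2, Smad1 and Smad6 kept their direction in all settings listed. Bmpr2 kept its sign only, as it was at -0.0022 once chromosome medians were removed. The cause of the changes between settings was not tested. With 3 libraries a group, the unblocked intervals of 9 of the 10 genes reach past 0.5 on the log2 scale on at least 1 side, so changes of that size could be missed. Counting error is not the limit, as every one of the 10 genes had at least 1025 reads in every library.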
